A study of Mus musculus with 10 samples.

Results

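In all, 8 genes of the cell death machinery were followed through hippocampal microglia of mouse pups: the death receptor Fas, its adaptor Fadd, the initiator proteases Casp8 and Casp2, the Bcl-2 family genes Bid, Bax and Bcl2, and Bcap31, a membrane protein of the endoplasmic reticulum. They are 8 of the 545 endogenous genes on an nCounter mouse immune panel and were picked by gene name. The panel reads each gene by a fluorescent barcode hybridized to it, here on cDNA made from 2 ng of total RNA and amplified by 5 rounds of PCR. Microglia, the resident macrophages of the brain, had been purified from male Balb/c pups by Percoll gradient and FACS at postnatal day 14. Of the 10 pups, 5 were controls, numbered 1, 18, 40, 52 and 69. The other 5 (pups 11, 17, 24, 38 and 59) had brief daily separation (BDS), in which pups are taken from the mother for 15 min a day, a schedule stated for postnatal days 1 to 21. BDS pups were thus sampled while the schedule was still running. Every pup came from its own litter and was read in 1 lane, so the spread reported is between pups and includes technical differences between lanes. How the control pups were handled is not given in the sources used here. In sorted cells read in bulk, fewer cells of a type and less RNA per cell cannot be told apart.

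Apoptosis can start by an extrinsic or an intrinsic route. In the extrinsic route, a death receptor such as Fas binds the adaptor Fadd, which gathers and activates caspase-8. Caspase-8 then cleaves effector caspases and also Bid, whose fragment carries the signal to mitochondria. In the intrinsic route, Bax forms pores in the outer mitochondrial membrane and Bcl2 holds it back. Caspase-2 is an initiator caspase activated on a separate platform, and the endoplasmic reticulum protein encoded by Bcap31 is a substrate of caspase-8. These proteins are controlled by cleavage and binding, so transcript counts measure their supply and not their activity. Caspase-8 also restrains necroptosis, a second form of cell death. Microglia of the developing hippocampus are known for clearing dying neurons.

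The promoter windows of Casp8, Casp2 and Bcap31 are shown because these 3 genes stood higher together in BDS pups, as described next. Each window spans 250 bases before to 50 bases after the gene's start in RefSeq (build GRCm38.p6, the C57BL/6J reference and not Balb/c), read 5′ to 3′ on the gene's strand. Casp8 lies at chr1:58802252-58802551 on the plus strand, Casp2 at chr6:42264735-42265034 on the plus strand and Bcap31 at chrX:73716155-73716454 on the minus strand. Capitals mark GC boxes (GGGCGG) and CCAAT boxes (CCAAT) on either strand, which may overlap one another.
Casp8: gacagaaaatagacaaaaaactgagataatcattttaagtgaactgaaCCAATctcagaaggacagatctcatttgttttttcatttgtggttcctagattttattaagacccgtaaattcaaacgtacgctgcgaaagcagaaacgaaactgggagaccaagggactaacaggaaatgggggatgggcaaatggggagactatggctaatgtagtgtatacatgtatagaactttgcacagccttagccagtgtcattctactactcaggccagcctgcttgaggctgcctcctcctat
Casp2: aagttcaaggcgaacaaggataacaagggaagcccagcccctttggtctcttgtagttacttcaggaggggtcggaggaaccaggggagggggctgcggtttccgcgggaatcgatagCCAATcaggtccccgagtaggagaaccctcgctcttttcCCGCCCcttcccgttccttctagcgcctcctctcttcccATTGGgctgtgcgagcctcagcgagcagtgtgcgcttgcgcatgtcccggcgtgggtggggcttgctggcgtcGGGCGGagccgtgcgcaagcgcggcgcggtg
Bcap31: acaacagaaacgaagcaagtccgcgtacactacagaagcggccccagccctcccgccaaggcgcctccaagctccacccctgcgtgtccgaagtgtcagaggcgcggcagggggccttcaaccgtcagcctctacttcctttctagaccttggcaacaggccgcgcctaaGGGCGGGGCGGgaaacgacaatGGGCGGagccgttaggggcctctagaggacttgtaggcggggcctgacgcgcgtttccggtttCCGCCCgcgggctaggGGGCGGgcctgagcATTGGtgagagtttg
Casp8 had 0 GC boxes, Casp2 had 2 and Bcap31 had 5. The GC content was 42% in Casp8, 63.7% in Casp2 and 65% in Bcap31, where the median over 32851 promoter windows was 52.7%. Among the 8 genes, all of which matched a RefSeq window by symbol, Casp8 was the only one without a GC box. Over all windows 35.7% held one. A CCAAT box was found in 3 of the 8 windows (Casp8, Casp2 and Bcap31), close to the share of all windows, 37.4%. A TATA box (TATAAA, 13.6% of all windows) was found in 0 of the 8 windows on either strand. A STAT site (TTCNNNGAA, 8.3%) was found in Fas alone, and an ETS core (GAGGAA, 28.3%) in Casp2, Bid and Bcl2. These matches describe letters in a window and are not evidence of binding.

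A gene was tested if its raw count exceeded the background limit in at least 4 of the 10 lanes. That limit is set in each lane 2 SD above the average of its 8 negative probes. This kept 283 of the 545 genes. Counts were then scaled by the housekeeping signal of the lane, the geometric mean of 6 housekeeping genes, to give normalized counts. Endogenous counts per lane ran from 76237 to 968930, and the housekeeping signal from 113 in control 52 to 1254 in BDS 17. The housekeeping signal averaged 1.23 log2 units more in BDS than in control lanes. Values with lane depth as a covariate are therefore given beside the results. All 11 microglial markers on the panel were above background in enough lanes to be tested, and made up 33.2% to 40.2% of endogenous counts in control lanes and 34.7% to 39.0% in BDS lanes. The sum hides single markers that went both ways in log2 fold change of BDS over control (edgeR, ± SE). Itgam was at -0.56 ± 0.18 and Cx3cr1 at -0.63 ± 0.23. C1qa was at 0.76 ± 0.20, Ikzf1 at 0.48 ± 0.18 and Ctss at 0.48 ± 0.18. Of 11 T cell markers 0 were tested, at a summed 0.0203% to 0.0997% of counts in control lanes and 0.0145% to 0.0249% in BDS lanes, and Cd3d and Cd3e exceeded the limit in 0 lanes. B cell markers (1 of 5 tested, Ms4a1 above the limit in 0 lanes) took 0.0379% to 0.0761% in control lanes and 0.0410% to 0.0581% in BDS lanes. Neutrophil markers (0 of 5 tested) took 0.00661% to 0.0590% and 0.00780% to 0.0126%. NK cell markers (2 of 5 tested) took 0.0200% to 0.0420% in control lanes and 0.0227% to 0.0299% in BDS lanes. Markers of monocytes and border macrophages (1 of 4 tested) took 0.0182% to 0.0485% and 0.0247% to 0.0342%. Endothelial markers (3 of 3 tested) took 0.184% to 0.394% in control lanes and 0.212% to 0.259% in BDS lanes, and their part in the results was not tested.

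Of the 8 genes 6 were tested, and Fas and Bcl2 were not. Casp8, Casp2, Bid, Bax and Bcap31 exceeded the background limit in 10 of 10 lanes and Fadd in 9, control 52 being the exception. In control 52 Casp2 and Bid were also close to the limit, with raw counts of 28 and 31 against 24.4. In BDS pups 5 of the 6 tested genes had higher values, where 55.8% of all genes tested did, and Bax had a lower one. By edgeR's quasi-likelihood test 0 of the 6 passed an adjusted p of 0.05 over the 283 genes, as did 0% of all genes tested. At an unadjusted p under 0.05 there were 3 of 6 (Casp8, Casp2 and Bcap31, all higher), where 28.3% of the genes tested passed in either direction and 19.4% were higher. DESeq2 put the same 3 under an adjusted p of 0.05, where it called 8.83% of all genes. So did edgeR without control 40 (17% of all genes called) or without BDS 11 (6.71%); of their groups, control 40 was the deepest lane and BDS 11 the shallowest. Under 9 of the 10 other scalings 5 of the 6 genes were higher, and under positive controls alone all 6 were. The median log2 fold change of the 6 was 0.62, against 0.09 over all 283 genes.

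**Figure D1:**
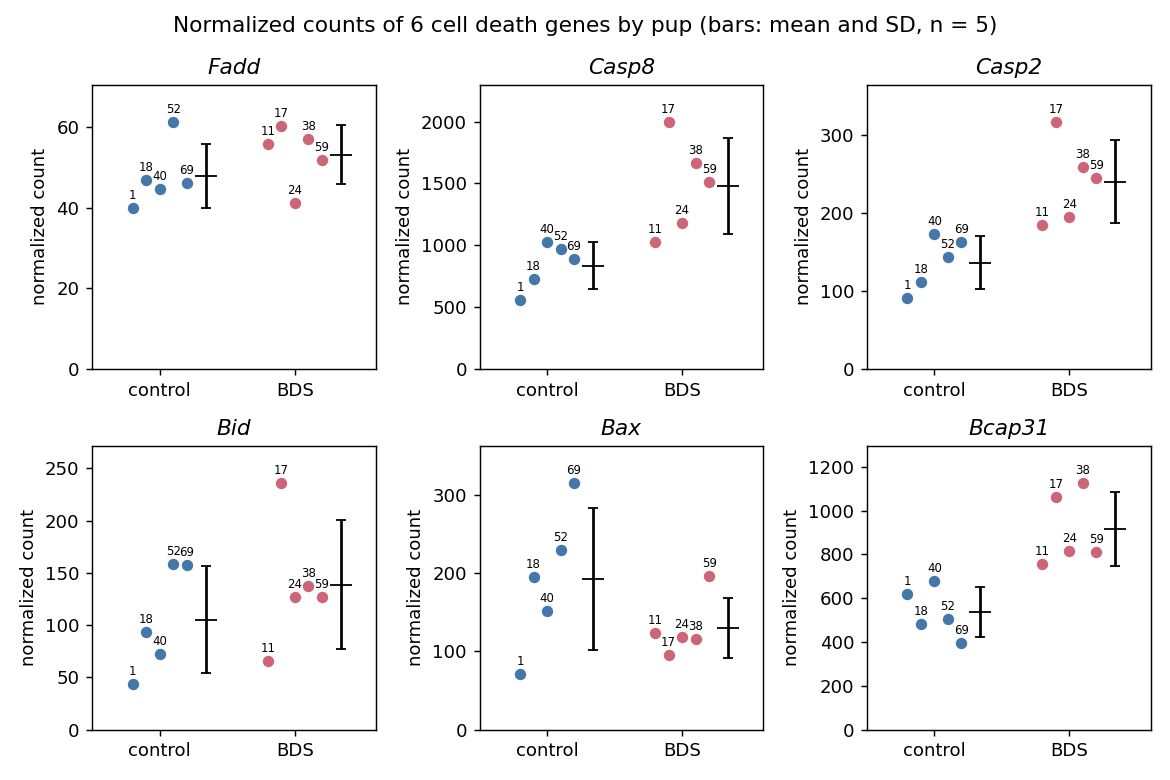
Normalized counts (vertical axis, linear from 0) of 6 cell death genes in 5 control and 5 BDS pups, each point labelled with the pup number, with bars for mean and SD (n = 5). The BDS points of Casp2 and Bcap31 lie above all control points, those of Casp8 overlap by the single pair of control 40 and BDS 11, and those of Bax lie mostly below the control mean.

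Fas, the receptor at the head of the extrinsic route, did not exceed background in any lane. Its raw counts were 4, 4, 4, 2 and 1 in control pups 1, 18, 40, 52 and 69, and 2, 9, 1, 2 and 2 in BDS pups 11, 17, 24, 38 and 59. All 10 values lay under the background limit of their lane, which ran from 13.9 to 26.3 raw counts. A difference in Fas was therefore not detectable in these lanes.

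Fadd, which links the receptor to caspase-8, was detected at a low level. Its normalized counts were 40.0, 46.8, 44.6, 61.2 and 46.2 in control pups 1, 18, 40, 52 and 69. In BDS pups 11, 17, 24, 38 and 59 they were 55.6, 60.2, 41.1, 57.0 and 51.8. The groups overlapped throughout, and the highest value of all belonged to control 52, where the raw count was 12. The means were 47.8 ± 7.98 in control and 53.1 ± 7.39 in BDS pups (SD, n = 5 each), and the log2 fold change was 0.18 ± 0.24 (SE; edgeR adjusted p = 0.607). With lane depth as a covariate it was 0.28 ± 0.24 (SE; edgeR adjusted p = 0.529). With the mean of the negative probes subtracted it was 0.57 ± 0.35 (SE; edgeR adjusted p = 0.298). Over 27 alternatives the adjusted p (edgeR, limma or DESeq2) ran from 0.0838 to 0.992. The coefficient of variation of Fadd, 16.7% in control and 13.9% in BDS pups, was the smallest among the 6 tested genes.

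Casp8, the initiator caspase that Fadd recruits, stood higher in BDS pups. Normalized counts were 555, 730, 1027, 969 and 891 in control pups 1, 18, 40, 52 and 69. They were 1023, 1997, 1184, 1668 and 1513 in BDS pups 11, 17, 24, 38 and 59. Every BDS pup but BDS 11 lay above every control pup, and BDS 11 lay just under control 40. The log2 fold change was 0.83 ± 0.23 (SE, n = 5 per group; edgeR adjusted p = 0.0642), or 1.77-fold, and Casp8 ranked 11th of 283 genes by p. With lane depth as a covariate it was 0.76 ± 0.28 (edgeR adjusted p = 0.369). It was positive under 28 of 28 alternatives, with adjusted p from 0.0124 (DESeq2) to 0.369.

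Casp2, the initiator caspase outside the death receptor route, showed nearly the same pattern. Normalized counts were 91.2, 112, 172, 143 and 163 in control pups 1, 18, 40, 52 and 69, with a mean of 136 ± 34.2 (SD, n = 5). They were 184, 316, 195, 258 and 245 in BDS pups 11, 17, 24, 38 and 59, with a mean of 239 ± 53.2 (SD, n = 5). All 5 BDS pups lay above all 5 control pups. Such a gap between the groups, in either direction, was seen in 4.59% of the 283 genes, and in 2 of the 6 tested here. The log2 fold change was 0.82 ± 0.24 (SE; edgeR adjusted p = 0.0744), and 0.74 ± 0.28 with lane depth as a covariate (edgeR adjusted p = 0.369). Over 28 alternatives it stayed positive, and the adjusted p ran from 0.0166 (DESeq2) to 0.369.

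Bcap31, the caspase-8 substrate of the endoplasmic reticulum, was the other gene without overlap. Normalized counts were 621, 484, 678, 505 and 394 in control pups 1, 18, 40, 52 and 69, with a mean of 536 ± 113 (SD, n = 5). In BDS pups 11, 17, 24, 38 and 59 they were 757, 1063, 814, 1127 and 813, with a mean of 915 ± 168 (SD, n = 5). The lowest BDS pup, BDS 11, stood above the highest control pup, control 40. The log2 fold change was 0.77 ± 0.20 (SE; edgeR adjusted p = 0.0642), the 6th smallest p of 283 genes. It was 0.55 ± 0.21 with lane depth as a covariate (edgeR adjusted p = 0.369) and 0.62 ± 0.20 without control 52 and 69, the shallowest lanes (edgeR adjusted p = 0.101). The 28 alternatives all gave positive values, with adjusted p from 0.0095 (DESeq2) to 0.369.

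Bid, which caspase-8 cleaves to pass the signal to mitochondria, varied widely in both groups. Control pups 1, 18, 40, 52 and 69 had normalized counts of 43.7, 93.7, 72.3, 158 and 158. BDS pups 11, 17, 24, 38 and 59 had 65.3, 236, 127, 137 and 127. BDS 17 was the highest and control 1 the lowest, and the groups overlapped. The log2 fold change was 0.47 ± 0.38 (SE, n = 5 per group; edgeR adjusted p = 0.416). It was 0.19 without BDS 17 and 0.99 ± 0.38 without control 52 and 69 (edgeR adjusted p = 0.121). With lane depth as a covariate it was 0.76 ± 0.49 (SE; edgeR adjusted p = 0.408). Over 28 alternatives its adjusted p ran from 0.0604 to 0.782 (limma, DESeq2 or edgeR).

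Bax, the pore-forming member of the Bcl-2 family, was the only one of the 6 tested genes with a lower mean in BDS pups. Normalized counts were 71.2, 195, 152, 229 and 315 in control pups 1, 18, 40, 52 and 69, with a mean of 192 ± 90.5 (SD, n = 5). They were 123, 95.1, 118, 115 and 196 in BDS pups 11, 17, 24, 38 and 59, with a mean of 130 ± 38.8 (SD, n = 5). All BDS pups but BDS 59 lay below the control mean, but control 1 was the lowest of all 10. The log2 fold change was -0.55 ± 0.33 (SE; edgeR adjusted p = 0.278). It was -0.11 ± 0.32 without control 52 and 69 (edgeR adjusted p = 0.843) and -0.18 ± 0.36 with lane depth as a covariate (edgeR adjusted p = 0.795). It was further from 0 without control 1, at -0.77 ± 0.28 (edgeR adjusted p = 0.170). Without Sdha in the scaling it was -0.74 ± 0.35 (edgeR adjusted p = 0.188). Scaling to positive controls alone turned it to 0.76, a setting in which the median of all 283 genes was 1.35. Over 28 alternatives the adjusted p (edgeR, limma or DESeq2) ran from 0.170 to 0.843. Raw counts of Bax differed 6.2-fold between the lowest and the highest lane, while those of Casp8, Casp2 and Bcap31 differed 22.9-, 24.6- and 23.4-fold and the housekeeping signal 11.1-fold.

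Bcl2, the inhibitor that holds Bax back, stayed at background. Its raw counts were 20, 22, 11, 15 and 14 in control pups 1, 18, 40, 52 and 69, and 14, 21, 18, 17 and 11 in BDS pups 11, 17, 24, 38 and 59. Only control 69 and BDS 17 exceeded the limit of their lane, and by few counts, 14 against 13.9 and 21 against 16.7. Mean raw counts were 16.4 ± 4.51 in control and 16.2 ± 3.83 in BDS pups (SD, n = 5 each), with no scaling applied. After division by the housekeeping signal the means became 33.1 ± 26.9 and 10.7 ± 3.61, with 76.5 in control 52, the shallowest lane. The authors' deposited table keeps Bcl2 as present, at 50% of samples above background with a fold change of 0.27 and p = 0.1018. With no filter on low counts its log2 fold change was -1.40 ± 0.52 (SE; edgeR adjusted p = 0.134 over 545 genes). The counts behind these folds did not follow lane depth, as the plot of raw counts shows.

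**Figure D2:**
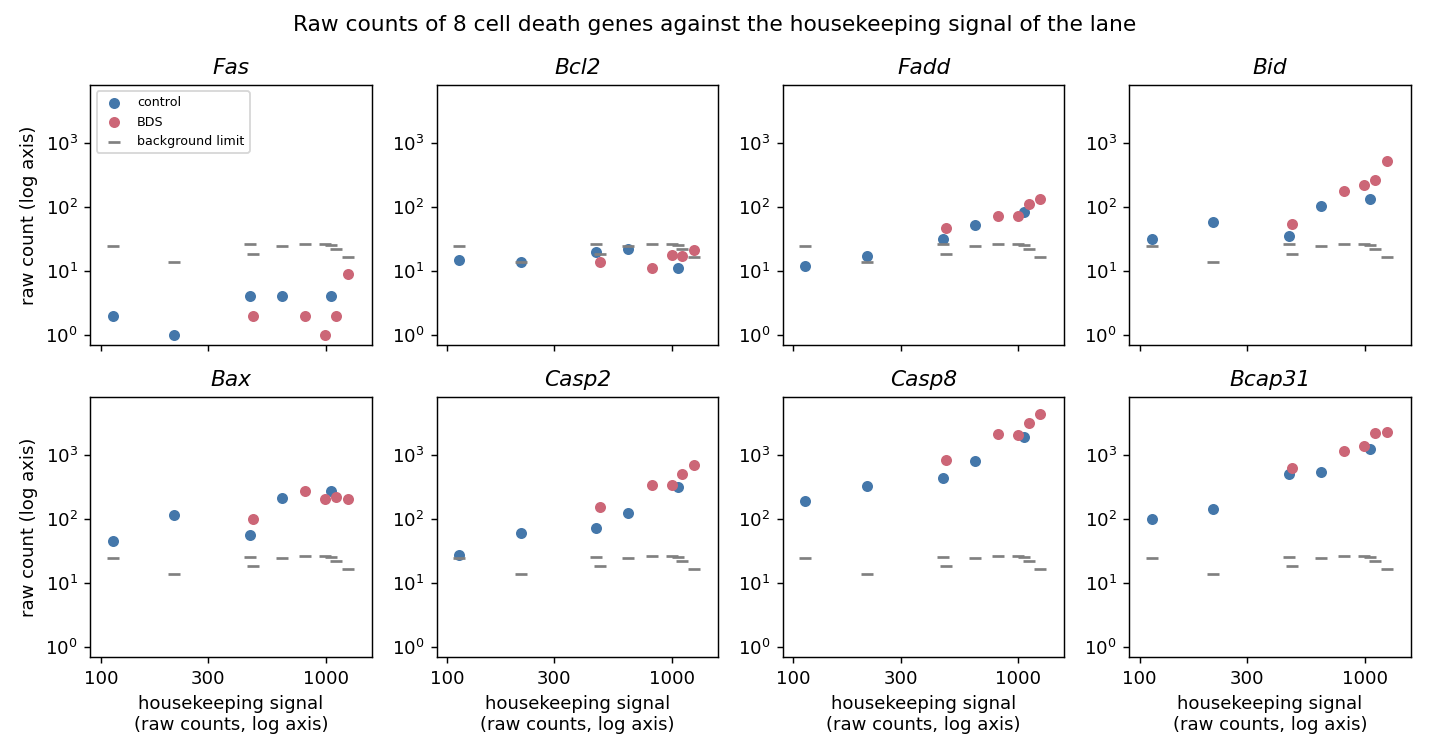
Raw counts (vertical log axis) of the 8 genes against the housekeeping signal of the lane (horizontal log axis, geometric mean of 6 housekeeping genes in raw counts), with 1 point per pup and grey dashes for the background limit of each lane. Fas lies under the limit in all 10 lanes and Bcl2 stays flat between 11 and 22 counts, while Casp8, Casp2 and Bcap31 climb with the housekeeping signal and Bax climbs less.

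Lanes of like depth can be set side by side. Control 1 and BDS 11 had housekeeping signals of 461 and 477, and Casp8 stood at 555 and 1023 normalized counts, Casp2 at 91.2 and 184, and Bcap31 at 621 and 757. In the deeper trio of control 40, BDS 24 and BDS 38, with signals of 1060, 997 and 1113, Casp8 stood at 1027, 1184 and 1668. Casp2 stood at 172, 195 and 258 in that trio, and Bcap31 at 678, 814 and 1127. In both sets the BDS lanes were the higher ones for these 3 genes. For Casp2 and Bcap31 any choice of lanes would give this, because their groups did not overlap. The single overlapping pair of Casp8, control 40 and BDS 11, was split between the sets. The sets therefore do not test the part of depth. For Bax the order differed between the sets, with 71.2 in control 1 against 123 in BDS 11, but 152 in control 40 against 118 and 115 in BDS 24 and 38. Each set holds 1 control lane, so these are values with no test.

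**Figure D3:**
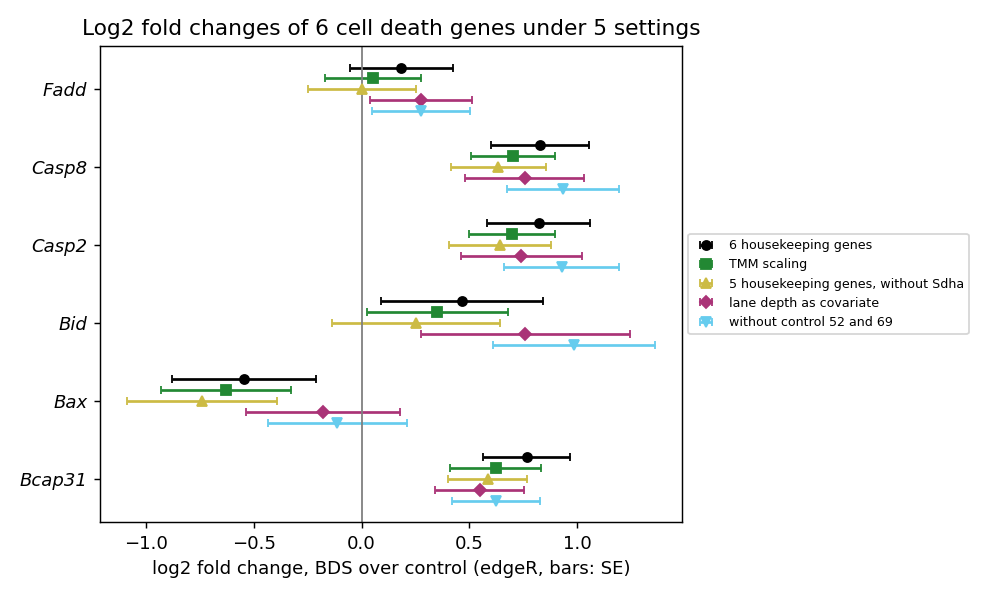
Log2 fold changes of BDS over control (horizontal axis) from edgeR with standard errors as bars, for 6 genes under 5 settings: scaling to 6 housekeeping genes, TMM scaling, 5 housekeeping genes without Sdha, lane depth as a covariate, and without control 52 and 69. Casp8, Casp2 and Bcap31 stay between 0.55 and 0.94, Fadd runs from 0.0027 to 0.28, and Bax moves from -0.74 to -0.11.

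Casp8 and Casp2 followed each other closely from lane to lane. Likeness was measured as the root mean square difference over the 10 lanes in log2 normalized counts (pseudocount 1) after each gene was centred on its own mean. For Casp8 the most alike of 282 other genes was Casp2, and for Casp2 it was Casp8, at 0.093. Among 39903 pairs of tested genes 4 were at least as alike, this pair included, and the median gene lay 0.19 from its nearest gene. The measure covers differences between groups as well as between pups of a group. By the same measure Bcap31 was nearest to the complement gene C1qa (0.16), Fadd to the adaptor Traf5 (0.18) and Bax to Rae1 (0.37). Bax was least like Bcap31 among the pairs of the 6 genes, at 0.98.

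Ratios of raw counts within a lane do not depend on how lanes are scaled, and 3 were compared. The others planned, Bax over Bcl2 and Fas over Fadd, were left out because Bcl2 and Fas were at background. A ratio between probes does not give relative abundance, so only its change between groups is read. The ratio of Casp8 to Casp2 ran from 5.47 in control 69 to 6.79 in control 52, and the BDS pups lay within that range at 5.57, 6.32, 6.07, 6.47 and 6.18 in pups 11, 17, 24, 38 and 59. On the log2 scale the groups differed by -0.0087 ± 0.066 (SE; exact two-sided permutation p = 0.921, adjusted over 3 ratios p = 0.921). With the mean of the negative probes subtracted the difference was -0.19.

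The ratio of Casp8 to Fadd was higher in BDS pups, though not past an adjusted p of 0.05. It was 13.9, 15.6, 23.0, 15.8 and 19.3 in control pups 1, 18, 40, 52 and 69. It was 18.4, 33.2, 28.8, 29.3 and 29.2 in BDS pups 11, 17, 24, 38 and 59. All BDS pups but BDS 11 lay above all control pups, and BDS 11 lay within the control range. The log2 difference was 0.66 ± 0.20 (SE; exact two-sided permutation p = 0.0238, adjusted over 3 ratios p = 0.0714). It was 0.80 without BDS 11 (exact permutation adjusted p = 0.0238) and 0.59 without BDS 17 (exact permutation adjusted p = 0.107). With the mean of the negative probes subtracted it was -0.16, where the 12 raw counts of Fadd in control 52 stood against a negative mean of 11.1. The highest control ratio belonged to the deepest control lane and the lowest BDS ratio to the shallowest BDS lane. The part of depth in this ratio was not tested.

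The ratio of Bax to Bid was 1.63, 2.08, 2.10, 1.45 and 2.0 in control pups 1, 18, 40, 52 and 69. It was 1.89, 0.403, 0.927, 0.842 and 1.55 in BDS pups 11, 17, 24, 38 and 59. Control pups stayed in a narrow band, and BDS 17, 24 and 38 lay below it while BDS 11 and 59 lay within it. The log2 difference was -0.90 ± 0.40 (SE; exact two-sided permutation p = 0.0476, adjusted over 3 ratios p = 0.0714). It was -1.13 without BDS 11 (exact permutation adjusted p = 0.0238) and -0.58 without BDS 17 (exact permutation adjusted p = 0.107). With each control pup left out in turn, the exact permutation adjusted p ran from 0.0952 to 0.143. The 3 low BDS lanes were also the 3 deepest BDS lanes, and control 40, of like depth, stood at 2.10.

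**Figure D4:**
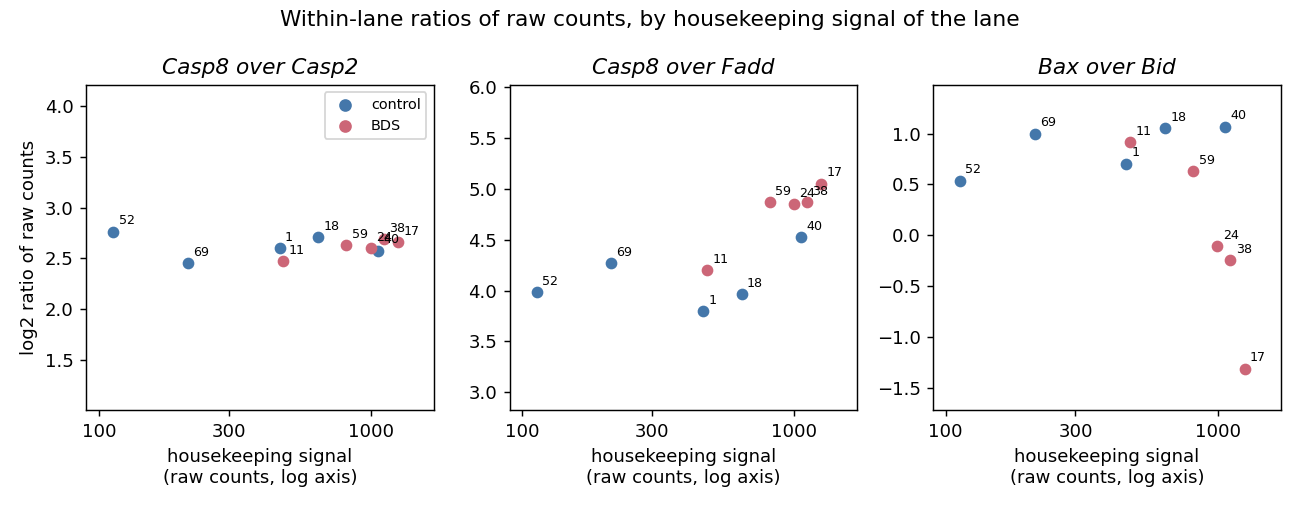
Log2 ratios of raw counts within a lane (vertical axes, each spanning the same number of log2 units) against the housekeeping signal of the lane (horizontal log axis), with points labelled by pup number. Casp8 over Casp2 is level across lanes and groups, Casp8 over Fadd is highest in BDS 17, 24, 38 and 59, and Bax over Bid falls to -1.31 in BDS 17.

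Other genes of the pathway were taken from a list of 67 ligands, receptors, adaptors, caspases, Bcl-2 relatives, p53 arm and cytotoxic granule genes, of which 25 were on the panel and 17 were tested. Of these, 10 were higher and 7 lower in BDS pups, with a median log2 fold change of 0.26. The split was 9 to 8 with TMM and without Sdha, and 17 to 0 with positive controls alone. At an unadjusted edgeR p under 0.05 there were 3 higher and 1 lower of the 17, where 28.3% of all genes tested passed in either direction and 19.4% were higher, and 0 passed an adjusted p of 0.05. No further Bcl-2 family gene of the list was on the panel, so Bid, Bax and Bcl2 stand alone for that family here. Bcl6, a transcriptional repressor that shares only the name, was at 0.41 ± 0.25 (SE; edgeR adjusted p = 0.278), and Bcl3 exceeded the limit in 1 lane.

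The 4 tested ligands of the list all had lower values in BDS pups, where 125 of the 283 genes tested did. They were higher under positive controls alone and lower under the 9 other scalings. Of the 4, 1 was at an unadjusted edgeR p under 0.05. Fasl, the ligand of Fas, exceeded the limit in 0 lanes. Tested TNF family ligands outside the list were Tnfsf13b at 0.50 ± 0.30, Cd40lg at -0.96 ± 0.36 and Ltb at -0.09 ± 0.28 (log2, SE). Lta stood at -1.26 ± 0.55 on the log2 scale (SE; edgeR adjusted p = 0.156), but exceeded the limit in only 4 lanes, with raw counts of 3 to 29. Tnfsf10, the death ligand TRAIL, was at -0.61 ± 0.37 with raw counts of 7 to 52, and Tnf at -0.48 ± 0.31. Scaling multiplied counts by 5.10 in control 52 and 2.72 in control 69, which raised counts near background there, as with Bcl2. The part of this in the lower ligand values was not tested. Both tested receptors of the list had positive values, Cd27 at 0.69 ± 0.27 (edgeR adjusted p = 0.132) and the TNF receptor Tnfrsf1b at 0.36 ± 0.35. Tested receptors of the family outside the list included Tnfrsf13b at -2.16 ± 0.65, Tnfrsf17 at -1.36 ± 0.47 and Ltbr at -0.78 ± 0.42. Normalized counts of Tnfrsf13b were 106 ± 120 in control and 21.7 ± 10.1 in BDS pups (SD). Those of Tnfrsf17 were 70.5 ± 58.4 and 24.9 ± 6.72, so both varied widely in control pups. Tnfrsf4 was at -0.07 ± 0.34, Tnfrsf14 at -0.00088 ± 0.60 and Tnfrsf11a at 0.34 ± 0.37. Among adaptors and inhibitors Cradd, which brings caspase-2 to its platform, was at -0.47 ± 0.25 (edgeR adjusted p = 0.220). Traf2 was at 0.26 ± 0.25 and the NF-kB inhibitor Tnfaip3 at 0.01 ± 0.25.

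Casp1, the inflammatory caspase, was at -0.22 ± 0.41 on the log2 scale (SE; edgeR adjusted p = 0.734). In the p53 arm, the cell cycle inhibitor Cdkn1a was at 0.61 ± 0.24 (edgeR adjusted p = 0.140) and the damage kinase Atm at 0.71 ± 0.32 (edgeR adjusted p = 0.159), both under an unadjusted p of 0.05. Trp53 itself was at -0.29 ± 0.23 (edgeR adjusted p = 0.414). Of the cytotoxic granule genes only perforin (Prf1) was tested, at 0.33 ± 0.35.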

How the data were processed

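Per the labels' protocols and the series' design text, sorted microglia of 5 control and 5 BDS pups were profiled on an nCounter panel. The authors deposited raw counts per probe and a second table of normalized values, treated as a score because they are scaled to positive controls and housekeeping genes and rounded. That deposited table also gives the percent of samples above background, a fold change (ratio of group means) and an unadjusted p-value headed as a t-test, per the file headers. The sources used here name no counting software.

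The main test was edgeR's (4.0.16, under R 4.3.3) two-sided quasi-likelihood test on raw counts of 283 genes, without covariates and with offsets from Alas1, Gapdh, Oaz1, Polr1b, Sdha and Tbp. P-values were adjusted over the 283 by Benjamini-Hochberg. Dividing the log2 fold change by the root of F gave its standard error, and positive values mean higher in BDS. Negative and positive probes and 14 housekeeping genes stayed out of the test. Within-lane ratios were compared by exact permutation over 252 assignments of lanes, whose smallest two-sided p is 0.00794. The edgeR test was checked on simulated counts in which the housekeeping scaling was exact and no background was added. That check does not cover errors of scaling or counts near background. The limma 3.58.1 and DESeq2 1.42.0 fits, other scalings, filters, background subtraction, lane depth and pups left out in turn served as alternatives, with the fit without control 52 and 69 added after seeing the data.

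The 8 genes, the lists and the rules were chosen with earlier results of these data known. The rule for named genes covered the 8 genes, up to 3 tested genes of each pathway role with the smallest p, and the nearest gene to each; a few genes under this rule are not reported here. Counts after PCR without molecular identifiers are not independent molecules. Endogenous counts per lane were 76237 to 968930.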

Additional observations from a re-analysis of the deposited data

Results flagged for a closer look

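In 2 cases a value stood apart from the other 4 pups of their group, among 18 groups of 5 examined, where chance alone marks about 1 in 20. Bax stood at 196 normalized counts in BDS 59, while the other BDS pups lay between 95.1 and 123. The gap to the nearest pup was 0.721 of the group's range, against a critical value of 0.71. The log2 ratio of Casp8 to Fadd was 4.20 in BDS 11, below the 4 other BDS pups at 4.85 to 5.05, a gap of 0.762 of the range. BDS 11 was the shallowest BDS lane, with a housekeeping signal of 477.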

How the results depend on the processing

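No paired analysis was possible because control and BDS pups share no replicate numbers in the labels. Counts of the 6 genes at an unadjusted edgeR p under 0.05 were 3 to 4 when each pup was left out. The share of all genes in those fits ran from 15.9% (without BDS 17) to 38.2% (without control 40). The 4 arose without control 1 (20.5%), where Bax, lower in BDS pups, was the added gene. The count was 5 with positive controls alone (45.2% of all genes) and 4 without control 52 and 69 (30.7%). At an adjusted p under 0.05 the count of 0 became 3 with DESeq2 (8.83% of all genes), 3 without Polr1b in the scaling (5.3%), 2 without Gapdh (4.24%), 2 with genes above the limit in all lanes only (5.08%), and 0 to 3 with each pup left out, the 3 arising without control 40 (17%) or BDS 11 (6.71%). Casp8 then stood at 0.83 (DESeq2), 0.93 (without Polr1b), 0.89 (without Gapdh) and 0.83 (all lanes), and at 0.69 to 0.93 with each pup left out. Casp2 stood at 0.83 (DESeq2) and 0.92 (without Polr1b), and at 0.70 to 0.94. Bcap31 stood at 0.76 (DESeq2), 0.85 (without Polr1b), 0.84 (without Gapdh) and 0.77 (all lanes), and at 0.67 to 0.87. Without Sdha in the scaling, Casp8 was at 0.63, Casp2 at 0.64 and Bcap31 at 0.59. A change of sign was seen for Fadd, to -0.032 with the authors' normalized values in limma, and for Bax, to 0.76 with positive controls alone. The ratio of Casp8 to Fadd turned to -0.16 after background subtraction and was 0.58 to 0.80 with each pup left out. Bax over Bid was -1.13 to -0.58. Casp8 over Casp2 was -0.19 after background subtraction and ran from -0.051 to 0.027 with each pup left out, positive at 0.014 without control 18, 0.027 without control 52 and 0.025 without BDS 11. Other pathway genes at an unadjusted edgeR p under 0.05 numbered 4, where 28.3% of all genes passed. They numbered 2 with median-of-ratios factors (25.8% of all genes) and 8 with positive controls alone (45.2%). The count was 1 with genes above the limit in all lanes (30.5%) and 1 after background subtraction (29.3%). With each pup left out it was 1 to 7. The 7 arose without control 52 (32.5%), and the 1 without control 69 (21.6%), BDS 17 (15.9%) or BDS 24 (20.1%). The causes were not tested, except that fewer genes are tested when all lanes must exceed the limit. Fas and Bcl2 lay at background and Fadd lay under the limit in control 52, and the part of lane depth in this was not tested.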

Other observations

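The authors' deposited table, with the authors' own scaling, gives a fold change of 1.55 for Casp8 (p = 0.0243), 1.54 for Casp2 (p = 0.0153) and 1.50 for Bcap31 (p = 0.0043), from the authors' own test and none of them adjusted. The authors' deposited table gives 0.59 for Bax, 1.13 for Bid, 0.97 for Fadd and 0.35 for Fas, with Fas above background in 0% of samples. These values come from the same lanes and add no independent support.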
